A study of Mus musculus with 11 samples.

Results

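Epiblast-like cells (EpiLC) at day 2 of differentiation were compared with the naive mouse embryonic stem (ES) cells they were made from, by capture and sequencing of DNA that carries 5-hydroxymethylcytosine (5hmC). The libraries were the 3 labelled TET_WT day 2 and the 3 labelled TET_WT day 0, and make up 6 of the 11 libraries in the series. Labels defined the groups, but the comparison was chosen with earlier results of these data known. TET_WT is the unmodified parent of a line that lacks Tet1, Tet2 and Tet3, and its day 0 cells grew in 2i/Lif, a medium of kinase inhibitors and the cytokine LIF that holds ES cells in the naive state. The other 5 libraries, TET_WT at day 1 (n = 2) and DNMT_WT at day 2 (n = 3; the unmodified parent of a line that lacks Dnmt1, Dnmt3a and Dnmt3b), shared the statistical fit and are given only as levels. The signal was read in 1183888 tested tiles of 2 kb, out of 1362779 in the file, on chromosomes 1 to 19 and X. It was also read in 20717 of 21631 annotated protein-coding genes, each taken with 2 kb on either side. Nothing in the labels tells whether replicates came from separate cultures, so p-values measure only the spread between these libraries. No RNA was read, so the naive and EpiLC identities in the labels could not be checked against expressed markers.

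5hmC is made from methylated cytosine by the TET enzymes, and needs methylation to be there first. It is usually found over the bodies and enhancers of active genes, while dense groups of CG dinucleotides at gene starts usually carry little methylation. Naive ES cells in 2i/Lif have low DNA methylation, and as they leave that state for the formative state, which EpiLC stand for, the de novo methyltransferases Dnmt3a and Dnmt3b add methylation across the genome.

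Read totals recovered from the deposited values ran from 29831997 to 51604034 at day 0 and from 20223130 to 28084687 at day 2, with a median of 5 to 15 and 4 to 6 reads per tile. A gene's level is the mean of its tiles in log2 RPKM, and a difference is day 2 minus day 0 on that log2 scale. A difference of 1 means a doubling in a tile. For a gene it is the average of such changes, each tile counting alike, and can differ from the change in its summed reads. Tiles without reads are set at 0.9 reads, a value that lies lower in deeper libraries, so a tile empty in all compared libraries would read higher at day 2. Since each library is scaled to its own total, a gain or loss of 5hmC in the cell as a whole is out of view, and fewer modified cells cannot be told apart from less 5hmC per cell. A call is a Benjamini-Hochberg adjusted p under 0.05 from limma over all genes or tiles. Day 0 replicate 2 stood apart: its reads per gene differed from replicates 1 and 3 by a chi-square of 30.4 and 31.1 per degree of freedom, against 4.66 between those 2 and 2.24 to 2.41 within day 2. Its share of tiles without reads was 27.9%, against 12.9% and 10.3%. Values without it stand beside results that it turned or moved most.

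Of all genes 17.8% were called, with 3170 higher at day 2 (15.3%) and 519 lower (2.51%). Without day 0 replicate 2 the shares were 22% and 9.56% (31.6% together), and 3547 genes were called in both fits with the same sign. The median difference was 0.09 over all genes, 0.64 over those called higher and -0.53 over those called lower. The median over all genes was 0.03 without day 0 replicate 2 and 0.18 with median centring, which also moves the baseline for the lists. By voom, a limma fit on the recovered reads of each gene, 33.3% were called (24.5% higher and 8.8% lower). The day 0 and day 2 libraries did not overlap at 31.6% of genes, higher at 23.6% and lower at 7.95%. A difference of 1 or more was found at 500 of the genes called higher, and of -1 or less at 58 of those called lower. Of the tiles 8.01% were called, 5.33% higher and 2.68% lower (7.35%, 5.17% and 2.18% without day 0 replicate 2). Of the calls 85.9% were higher over genes and 66.5% in tiles, but without that library these shares were 69.7% and 70.3%.

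**Figure D1:**
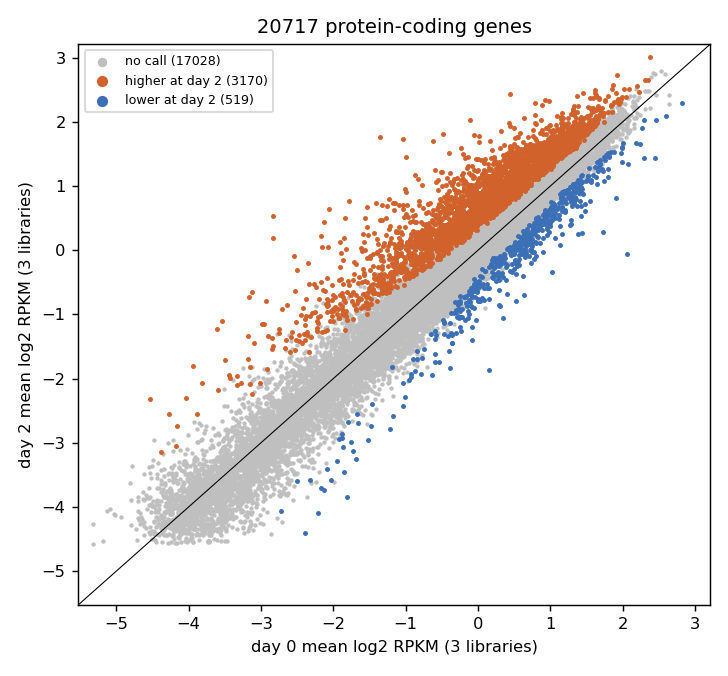
Mean log2 RPKM of each of 20717 genes in the 3 day 0 libraries (x axis) and the 3 day 2 libraries (y axis), 1 point per gene, with the line of equal values. The 3170 genes called higher (orange) lie above the line and the 519 called lower (blue) below it, and genes of low signal (under about -3) are mostly without a call (grey).

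The starts of the genes with the largest gains and losses are shown because 5hmC can only form at cytosines that are first methylated, mostly in CG. Each sequence is the RefSeq promoter on GRCm38.p6, from 250 bases before the start to 50 after it, read on the strand of the gene with every CG in capitals. Among 17274 such promoters the median number of CG was 14. Klf2, a zinc finger gene of the naive network (chr8:72318812-72319111, plus strand), has 32 CG, and 12.2% of promoters hold as many or more. Aqp3, a water and glycerol channel (chr4:41098134-41098433, minus strand), has 21 (34.1%). Elf3, an epithelial transcription factor (chr1:135258423-135258722, minus strand), has 12 (54.0%), and Nanog, a homeobox factor of pluripotency (chr6:122707239-122707538, plus strand), has 4 (75.8%). Among the losses, Pramel6 (chr2:87506315-87506614, plus strand) has 3 CG (81.3%), Pramel14 (chr4:143994320-143994619, minus strand) has 2 (88.0%) and Ly6c2 (chr15:75111922-75112221, minus strand) has none. Tbx3, which had the largest gain, is named only.
Klf2: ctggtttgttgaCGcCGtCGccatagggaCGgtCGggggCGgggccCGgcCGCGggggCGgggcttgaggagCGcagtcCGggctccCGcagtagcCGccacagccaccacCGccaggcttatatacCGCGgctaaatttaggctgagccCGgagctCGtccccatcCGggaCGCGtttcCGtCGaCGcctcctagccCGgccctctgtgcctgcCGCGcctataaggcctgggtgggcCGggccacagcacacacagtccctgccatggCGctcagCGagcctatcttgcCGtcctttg
Aqp3: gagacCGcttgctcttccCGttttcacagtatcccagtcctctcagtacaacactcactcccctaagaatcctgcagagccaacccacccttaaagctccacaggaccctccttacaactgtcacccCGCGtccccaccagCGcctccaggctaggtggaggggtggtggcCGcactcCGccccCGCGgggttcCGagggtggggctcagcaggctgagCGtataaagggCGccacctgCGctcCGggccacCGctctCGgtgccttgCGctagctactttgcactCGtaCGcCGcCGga
Elf3: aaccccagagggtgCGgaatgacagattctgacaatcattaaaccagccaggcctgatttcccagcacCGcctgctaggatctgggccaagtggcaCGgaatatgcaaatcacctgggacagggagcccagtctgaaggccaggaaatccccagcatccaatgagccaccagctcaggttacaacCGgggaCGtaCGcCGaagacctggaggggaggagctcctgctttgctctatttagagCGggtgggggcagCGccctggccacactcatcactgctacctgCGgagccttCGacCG
Nanog: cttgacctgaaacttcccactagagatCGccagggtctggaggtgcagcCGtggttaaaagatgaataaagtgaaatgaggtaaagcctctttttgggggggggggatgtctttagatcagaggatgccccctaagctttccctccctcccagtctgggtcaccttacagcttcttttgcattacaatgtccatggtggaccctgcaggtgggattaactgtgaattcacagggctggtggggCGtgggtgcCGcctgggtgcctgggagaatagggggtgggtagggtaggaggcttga
Pramel6: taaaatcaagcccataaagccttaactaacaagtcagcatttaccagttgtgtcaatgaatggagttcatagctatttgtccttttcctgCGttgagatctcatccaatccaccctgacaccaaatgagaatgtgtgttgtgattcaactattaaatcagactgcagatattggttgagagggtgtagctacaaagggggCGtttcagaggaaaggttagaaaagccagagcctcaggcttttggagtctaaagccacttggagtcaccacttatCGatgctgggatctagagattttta
Pramel14: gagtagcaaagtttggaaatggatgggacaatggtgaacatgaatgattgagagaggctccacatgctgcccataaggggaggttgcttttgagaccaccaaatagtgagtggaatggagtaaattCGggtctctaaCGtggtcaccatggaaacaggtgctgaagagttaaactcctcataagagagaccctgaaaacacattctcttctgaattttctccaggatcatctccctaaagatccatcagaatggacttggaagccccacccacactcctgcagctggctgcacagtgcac
Ly6c2: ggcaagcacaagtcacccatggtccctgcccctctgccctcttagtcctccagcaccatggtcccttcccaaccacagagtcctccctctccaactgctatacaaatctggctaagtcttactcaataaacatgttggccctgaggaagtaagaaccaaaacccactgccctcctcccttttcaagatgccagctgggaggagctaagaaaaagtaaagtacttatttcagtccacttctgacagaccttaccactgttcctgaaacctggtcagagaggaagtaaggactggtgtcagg

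At Klf2 the gain lay on both sides of the start and not in the tile that holds it. The tile over the CG-rich start (72318001 to 72320000) held 9, 11 and 18 reads at day 0 against 6, 3 and 6 at day 2, and was not called (-0.58, SE 0.80, adjusted p = 0.81). The tile before it held 1, 4 and 7 reads at day 0 and 36, 19 and 35 at day 2 (4.01, SE 0.57). The tile after it went from 2, 3 and 6 reads to 28, 56 and 44 (4.4, SE 0.48). Each of these neighbours was separate between the groups although the day 0 libraries were deeper.

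Aqp3 differed, since the tile that holds its start was among its strongest gains. That tile (41098001 to 41100000) lies mostly before the start at 41098183 on the minus strand. Tiles of 2 kb therefore cannot place the gain at the start itself. The tile with the Aqp3 start held 17, 2 and 6 reads at day 0 and 75, 77 and 90 at day 2 (4.54, SE 0.36), and all 6 tiles of the gene were called higher. At the gene level the 3 day 0 libraries read -1.65, -1.53 and -0.88 and the day 2 libraries 1.68, 1.90 and 1.71, without overlap. The difference was 3.12 (SE 0.19, adjusted p = 1.79e-06), and 3.03 without day 0 replicate 2.

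At Elf3 the start tile was low at both times, with 4, 2 and 10 reads at day 0 and 6, 11 and 8 at day 2 (1.67, adjusted p = 0.245, no call). The next tile inside Elf3 went from 21, 6 and 15 reads to 117, 92 and 121 (3.91, SE 0.28). In all 5 of its 6 tiles were called higher. The Elf3 gene level was -0.63, -1.41 and -1.08 at day 0 and 1.61, 1.91 and 1.69 at day 2, again without overlap.

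The Nanog start tile rose from 2, 7 and 7 reads to 20, 21 and 37 (3.20, SE 0.62, adjusted p = 3.1e-05). The tile behind it stayed low, with 2, 2 and 7 reads against 7, 15 and 3 (1.93, adjusted p = 0.132, no call). The tile before the Nanog start went from 11, 12 and 0 reads to 74, 67 and 76 (4.64, SE 0.47). In all 5 of 7 tiles were called higher.

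At Pramel6, one of a large family of related genes, the start tile lost signal, from 59, 28 and 41 reads to 8, 5 and 9 (-1.75, SE 0.56, adjusted p = 0.0285), but it was not called without day 0 replicate 2. The next Pramel6 tile fell from 89, 14 and 92 reads to 2, 3 and 5 (-3.20, SE 0.63). The start tiles of Pramel14 (21, 5 and 24 reads against 0, 1 and 4; adjusted p = 0.115) and Ly6c2 (15, 12 and 14 against 4, 1 and 5; adjusted p = 0.356) were not called. The Ly6c2 start lies at the edge of its tile, and most of its printed bases lie in the tile before the start (75112001 to 75114000). That tile fell from 50, 27 and 34 reads to 6, 3 and 4 (-2.34, SE 0.73, adjusted p = 0.0251). It was called lower, but not without day 0 replicate 2. Reads from such families may be placed on a related copy, which was not tested.

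Across the genome the mean signal at and just behind gene starts differed between the groups. Tiles were placed by the distance of their midpoint, so tiles placed just behind a start can hold the start itself. In 16177 tiles with a midpoint in the 2 kb after the start, the day 0 libraries averaged -1.38, -1.37 and -1.32 log2 RPKM. The day 2 libraries averaged -1.06, -0.99 and -1.05. The groups did not overlap, and 13.8% of these tiles were called higher and 1.36% lower. Relative to the mean of all tiles in the same library the difference was 0.34 (exact permutation test of 3 against 3, two-sided, p = 0.1, the smallest it allows; 0.533 adjusted over 20 distance bins). On that relative scale day 0 replicate 2 stood at 0.49, close to the day 2 libraries at 0.49, 0.52 and 0.50, while day 0 replicates 1 and 3 stood at 0.01 and -0.02. Without replicate 2 the relative difference was 0.51. The bins from 2 kb before the start and from 2 to 4 kb after it differed by 0.28 and 0.19 (0.40 and 0.27 without replicate 2). Bins 10 to 20 kb before the start differed by 0.02 to 0.05 (0.09 to 0.11 without replicate 2) and bins 10 to 20 kb after it by 0.05 to 0.09 (0.10 to 0.16).

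The difference was not alike for starts of different CG content. In tiles with a midpoint in the 2 kb behind the start, starts with 5 to 14 CG in their 300 bases went from -0.58 ± 0.02 to -0.14 ± 0.02 (SD, n = 3). Of these tiles 21.2% were called higher. Starts with 15 or more CG went from -1.54 ± 0.08 to -1.13 ± 0.04, with 13.7% called higher and 0.742% lower. Starts with 0 to 4 CG read -1.72 ± 0.21 and -1.67 ± 0.03, a difference of 0.05 that was -0.07 without day 0 replicate 2, and 7.38% of their tiles were called higher. Starts with 15 or more CG lay below their flanks at both times. These classes also differ in signal: median gene levels at day 0 were -2.10, -0.20 and -0.05 in the order of 0 to 4, 5 to 14 and 15 or more CG, and the part of that in the different shares of calls was not tested.

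**Figure D2:**
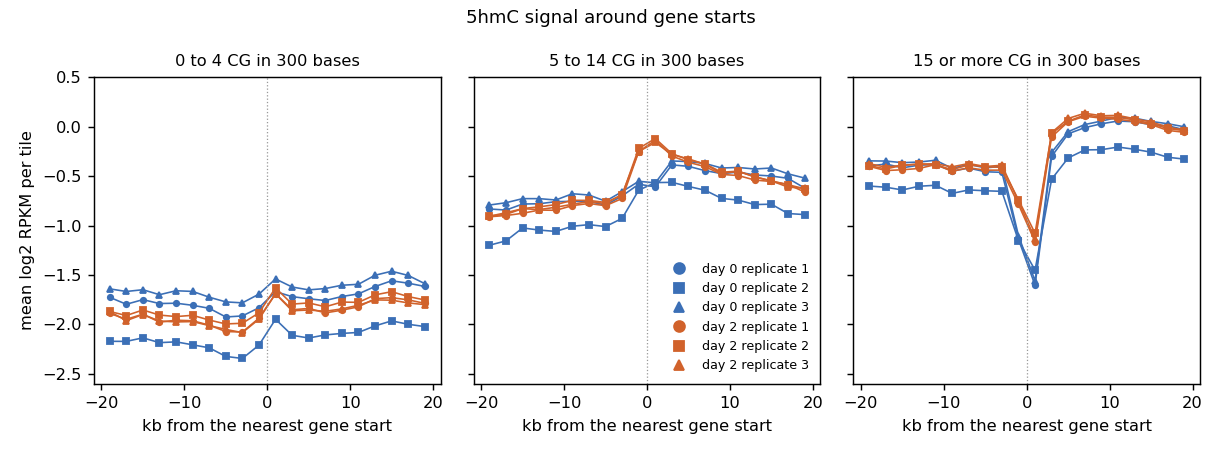
Mean log2 RPKM per 2 kb tile against distance in kb from the nearest gene start, in 3 panels by the number of CG in the 300 bases of the start; each line is 1 library (blue, day 0; orange, day 2). Distance is that of the tile midpoint. In tiles with a midpoint in the 2 kb behind starts with 5 to 14 CG the day 2 lines stand near -0.14 against -0.58 at day 0. The dip at starts with 15 or more CG is shallower at day 2 (-1.13 against -1.54), and day 0 replicate 2 (blue squares) runs below the other lines away from starts.

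The calls formed runs along the chromosomes. Adjacent tiles called in the same direction made 11289 runs of 2 or more among gains, with the longest of 18 tiles, and 5253 among losses, with the longest of 13. Such runs of 2 or more held 43.8% of the tiles called higher and 39.0% of those called lower.

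The longest gain lay inside Esrrb, an orphan nuclear receptor of the naive network (chromosome 12, 86462001 to 86498000, 18 tiles). Its tiles averaged -3.07, -2.18 and -3.25 at day 0 against 0.53, 0.58 and 0.44 at day 2, a difference of 3.35 with no overlap. Summed reads in the Esrrb run were 170, 154 and 152 at day 0 and 762, 552 and 651 at day 2, although the day 0 libraries were deeper. It stood at -2.0 and -2.14 in the 2 day 1 libraries and between 0.90 and 1.15 in DNMT_WT. The stretch was thus low at day 0 and day 1 and high in both kinds of day 2 cells.

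Sh3pxd2a, which encodes a scaffold of invasive cell protrusions, held a run of equal length (chromosome 19, 47426001 to 47462000, 18 tiles, difference 2.00). Next came Cd9, which encodes a tetraspanin of the cell surface (chromosome 6, 125466001 to 125498000, 16 tiles, 2.15), Tmem51 (chromosome 4, 142056001 to 142086000, 15 tiles, 2.60) and Rai14 (chromosome 15, 10664001 to 10692000, 14 tiles, 2.10). Without day 0 replicate 2, 17, 18, 16, 15 and 12 of the tiles in these 5 runs were still called. Runs were chosen by these calls, so their differences are a description.

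The longest loss lay inside Lama1, which encodes a laminin chain of basement membranes (chromosome 17, 67802001 to 67828000, 13 tiles). It read 2.15, 2.50 and 2.14 at day 0 and 1.05, 1.26 and 1.17 at day 2, from 2998, 2308 and 2875 reads to 884, 667 and 895. Another run of 10 tiles lay in the same gene (67730001 to 67750000, difference -1.33), and 32 of all 66 Lama1 tiles were called lower and 2 higher. At the gene level Lama1 fell from 1.41, 1.41 and 1.3 to 0.68, 0.68 and 0.72 (-0.68, SE 0.08, adjusted p = 0.000165), and with median centring its call was lost (adjusted p = 0.106). The signal in Lama1 thus fell from a high level to a lower one and did not vanish.

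Ttn, which encodes the giant muscle protein titin, held a loss of 12 tiles (chromosome 2, 76730001 to 76754000), from 2.8 ± 0.13 to 1.44 ± 0.01 (SD, n = 3). Usp24, which encodes a deubiquitinase, held 9 tiles (chromosome 4, 106384001 to 106402000), from 1.84 ± 0.05 to 0.08 ± 0.02. A run of 10 tiles on chromosome 8 (125636001 to 125656000) lay outside genes, 13.8 kb from Map10, and differed by -1.35. Of the 5 runs of loss, 9, 11, 8, 10 and 8 tiles were still called without day 0 replicate 2, in the order Lama1, Ttn, chromosome 8, the other Lama1 run and Usp24.

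**Figure D3:**
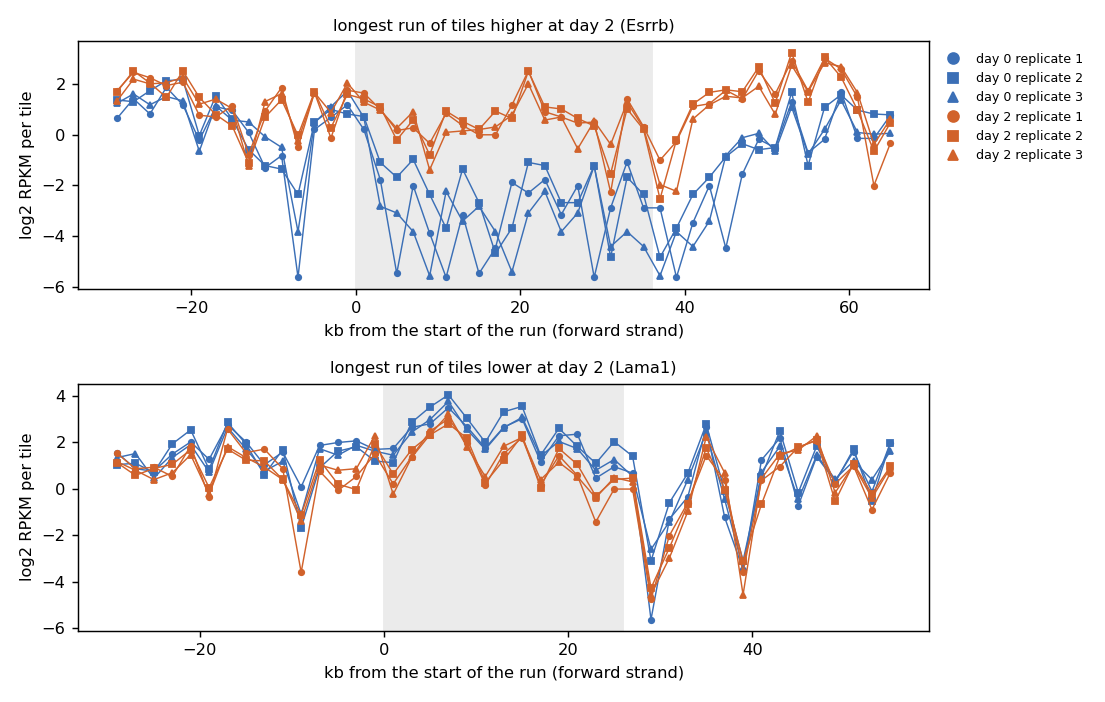
Log2 RPKM per 2 kb tile (y axis) against distance in kb from the start of the run (x axis), for the longest run of gains (Esrrb, top) and of losses (Lama1, bottom), with 1 line per library and the run shaded. In Esrrb the day 2 lines average 0.52 inside the run against -2.84 at day 0 and meet the day 0 lines in some tiles outside it, and in Lama1 both groups keep the same peaks with day 2 lower (1.16 against 2.26).

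Genes were then read in 22 lists by their roles, chosen with earlier results of these data known, so the counts are a description. Counts of members called stand against 15.3% higher and 2.51% lower over all genes. Without day 0 replicate 2 these shares were 22% and 9.56%, and by voom 24.5% and 8.8%. Where limma called 0 members of a list lower, 0 to 3 had an unadjusted p under 0.05 and a negative difference, and voom called 0 to 4 lower. In the list of naive pluripotency genes 21 of 24 were called higher and 0 lower, with a median difference of 1.3 against 0.09 over all genes. Of the tiles in these genes 43.4% were called higher and 3.24% lower, against 7.72% and 3.26% for the tiles of all genes. The median level of the list was -0.73 at day 0, -0.54 at day 1 and 0.52 at day 2, and 1.04 in DNMT_WT, which had no day 0 here. Klf4 (2.19, SE 0.19, adjusted p = 1.54e-05) and Klf5 (1.38, SE 0.14, adjusted p = 5.62e-05) encode factors of the same family and network as Klf2. Prdm14, which holds ES cells naive (1.34, SE 0.12), Fgf4, the growth factor that drives their exit (1.84, SE 0.34), and Tfcp2l1, a further naive factor (1.10, SE 0.16), also rose. Spic, which encodes an ETS factor, had 0.51 without a call (adjusted p = 0.159).

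Of 14 factors shared by naive and formative cells 7 were called higher and 1 lower (median 0.60). The lower one, Utf1, a chromatin factor gene of ES cells, turned sign by voom (-0.63, SE 0.18, adjusted p = 0.025; 0.13 by voom). Sall4, a zinc finger factor, read -0.62, -0.04 and -0.32 at day 0 and 0.82, 0.86 and 0.72 at day 2 (1.13, SE 0.16, adjusted p = 0.000404). Mycn, a MYC family factor (1.32, SE 0.28, adjusted p = 0.00609), Rest, a repressor of neuronal genes (0.75, SE 0.14), and Dppa2, a chromatin factor of early embryos (1.22, SE 0.21, adjusted p = 0.00151), rose. The Dppa2 call was lost without the 2 kb extension (0.64, adjusted p = 0.0729). Pou5f1, which encodes Oct4, held only 42 to 53 reads per day 0 library and 22 to 37 at day 2 and was not called (-0.32, SE 0.34, adjusted p = 0.615; 0.03 without day 0 replicate 2). With spans extended by 20 kb it was called higher (0.71, adjusted p = 0.000551), so its flanks and its body did not read alike. Sox2 rose by 1.12 (adjusted p = 0.0362) on 10 to 24 reads per library, and lost its call under 15 of its 23 alternatives.

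Among formative and primed epiblast genes 8 of 20 were called higher and 0 lower (median 0.36). Nkx1-2, a homeobox gene, led the list with 2.14 (SE 0.25, adjusted p = 0.000113), followed by Foxd3, a forkhead factor needed at this transition (1.54, SE 0.21, adjusted p = 0.000302). Wnt8a, a WNT ligand, read 0.45, 0.21 and 0.22 at day 0 and 1.3, 1.45 and 1.39 at day 2 (1.08, SE 0.10). Pou3f1, which encodes Oct6 of the formative state, was not called (0.47, SE 0.20, adjusted p = 0.139).

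**Figure D4:**
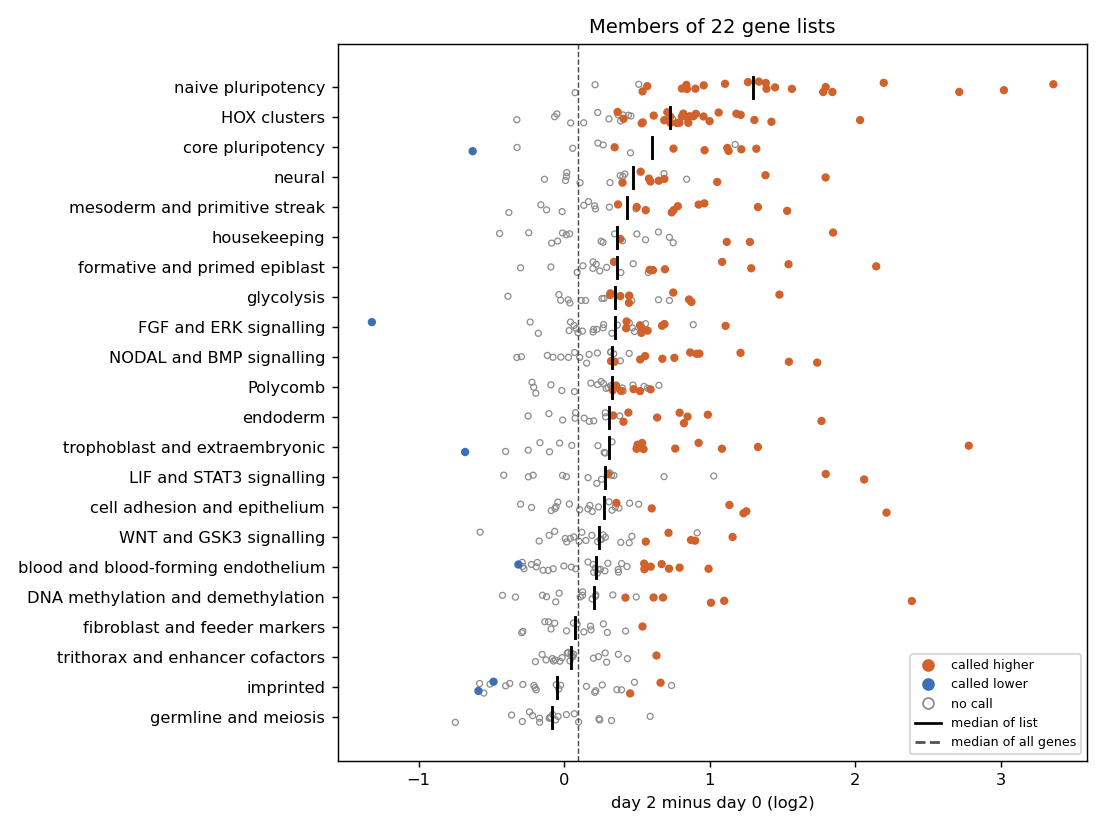
Day 2 minus day 0 on the log2 scale (x axis) for each measured member of 22 gene lists (rows, ordered by their median), with a bar at the list's median and a dashed line at the median of all genes (0.09). The naive list has the highest median (1.3) and the HOX clusters the next (0.73), while the germline list (-0.09) and the imprinted list (-0.05) lie at the bottom.

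The 2i/Lif medium acts through LIF and through inhibitors of MEK and GSK3, so the members of these pathways were read next. Of 16 genes of LIF and STAT3 signalling 3 were called higher and 0 lower (median 0.28), a share near the 15.3% of all genes, and 6 and 1 without day 0 replicate 2. Socs3, the feedback inhibitor of LIF signalling and a STAT3 target (chromosome 11, 117966079 to 117970336), read -1.54, -1.38 and -1.77 at day 0 and 0.24, 0.76 and 0.49 at day 2. The groups did not overlap, and the difference was 2.06 (SE 0.23, adjusted p = 8.87e-05). In Socs3 3 of 5 tiles were called higher. Pim3, a kinase gene downstream of STAT3, read -2.87, -1.92 and -3.35 and then -1.19, -1.0 and -0.56 (1.80, SE 0.32, adjusted p = 0.00191). The shared receptor chain Il6st rose by 0.30 (SE 0.09), while the LIF receptor gene Lifr (0.26, adjusted p = 0.0607) and Stat3 itself (-0.21, adjusted p = 0.157) were not called.

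Of 30 genes of FGF and ERK signalling 9 were called higher and 1 lower (median 0.35). Receptor genes Fgfr1 (0.67, SE 0.13), Fgfr3 (0.53, SE 0.14) and Fgfr4 (0.57, SE 0.13) rose, as did the adaptor gene Grb2 (0.43, SE 0.10) and Map2k1, which encodes the kinase MEK1 (0.42, SE 0.12). Etv5, an ETS factor that responds to ERK, rose from -0.31 ± 0.09 to 0.80 ± 0.10 (1.11, SE 0.13, adjusted p = 0.000128), and 16 of its 32 tiles were called higher. Dusp6, which encodes a phosphatase that switches ERK off (chromosome 10, 99263231 to 99267489), was the single loss. It read -0.13, -0.16 and 0.04 at day 0 and -1.69, -1.40 and -1.12 at day 2, without overlap (-1.32, SE 0.18, adjusted p = 0.000382). In DNMT_WT at day 2 Dusp6 stood at -0.18, -0.30 and -0.58, nearer to TET_WT at day 0 than at day 2. By voom the Dusp6 difference was -0.76 (adjusted p = 0.0019), and 1 of its 5 tiles was called, with 37, 18 and 13 reads against 1, 0 and 5. The other phosphatase gene of the list, Dusp4, rose by 0.53 (SE 0.15), so these related inhibitors moved in opposite directions.

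Of 26 WNT and GSK3 genes 5 were called higher and 0 lower (median 0.24), also near the 15.3% of all genes, with 10 and 1 without day 0 replicate 2. The ligand gene Wnt5a rose from -0.55 ± 0.14 to 0.32 ± 0.12 (0.87, SE 0.13), and the receptor genes Fzd2 (0.90, SE 0.13) and Fzd5 (1.16, SE 0.22) rose as well. Fzd2 lost its call without the 2 kb extension (0.38, adjusted p = 0.0522). Axin2, a common target of the pathway, was not called (0.19, adjusted p = 0.301).

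Of 28 NODAL and BMP genes 12 were called higher and 0 lower (median 0.33). The ligand gene Nodal (1.21, SE 0.27, adjusted p = 0.00709), its co-receptor Tdgf1 (0.86, SE 0.20) and its feedback inhibitors Lefty1 (0.93, SE 0.12) and Lefty2 (0.91, SE 0.12) rose. Lefty2 read 0.45, 0.38 and 0.45 at day 0 and 1.24, 1.37 and 1.39 at day 2. The inhibitory SMAD genes rose, Smad7 from -0.76, -0.89 and -1.09 to 0.50, 0.88 and 0.51 (1.54, SE 0.14, adjusted p = 1.69e-05) and Smad6 by 0.52 (SE 0.12). Id1, a target of BMP signalling, rose by 1.74 (SE 0.31). The signal-carrying genes Smad1 (0.03, adjusted p = 0.872), Smad2 (0.32, adjusted p = 0.263) and Smad3 (0.07, adjusted p = 0.757) were not called. Smad1 stood at 2.02 at day 0 and 2.05 at day 2, among the higher gene levels of the list throughout.

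In the list of DNA methylation and demethylation 6 of 20 genes were called higher (30%, against 15.3% of all genes) and 0 lower (median 0.20). Gadd45b, a stress gene linked to active demethylation, led with -2.69, -1.74 and -2.07 at day 0 and 0.23, 0.33 and 0.11 at day 2 (2.39, SE 0.37, adjusted p = 0.000807). Smug1, a glycosylase gene of base excision repair, rose by 1.01 (SE 0.20), and Uhrf1, the partner of maintenance methylation, from 0.18 ± 0.41 to 1.27 ± 0.03 (1.10, SE 0.16). Among the TET genes the pattern inside the gene differed. In Tet1 10 of 44 tiles were called higher and 0 lower, in Tet2 17 of 44 and 0, and in Tet3 4 of 47 higher and 5 lower. Over the tiles of all genes 7.72% were called higher and 3.26% lower. In Tet3 the strongest tile, 22.7 kb from the start, went from 42, 24 and 29 reads to 117, 93 and 120 (2.59, SE 0.25), while the whole gene read 1.06 ± 0.13 and 1.02 ± 0.05. A single value over Tet3 therefore does not show its tiles called in both directions. The share of Tet3 tiles called higher was near that of all genes.

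Polycomb genes, which encode repressors of developmental genes, had 6 of 26 called higher and 0 lower (median 0.32; 15.3% of all genes were higher), among them Kdm2b (0.39, SE 0.09, adjusted p = 0.0104) and Aebp2 (0.36, SE 0.09, adjusted p = 0.0131; 0.18 by voom). With median centring none of the 26 was called. The core subunit genes Ezh2 (-0.09, adjusted p = 0.904), Suz12 (0.40, adjusted p = 0.244) and Eed (0.23, adjusted p = 0.597) were not called. Among 22 genes of trithorax complexes and enhancer cofactors 1 was called higher and 0 lower (median 0.04), and without day 0 replicate 2 3 and 2 (median -0.03).

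The HOX clusters, which pattern the body axis later in development, are classic Polycomb targets. Among their 39 genes 26 rose and 0 fell (median 0.73), and 34.3% of their tiles were called higher and 0% lower. Neighbouring HOX genes share tiles, so the 268 gene tiles are 206 distinct ones and the genes are not independent. Hoxc6 (chromosome 15, 102998226 to 103011882) read -0.24, -0.22 and -0.41 at day 0 and 1.11, 1.06 and 1.23 at day 2, and 7 of its 9 tiles were called higher (1.42, SE 0.09, adjusted p = 2.34e-06). Hoxc12 had the largest difference (2.03, SE 0.27) and Hoxa3 rose by 0.81 (SE 0.08; 0.50 by voom). All 4 clusters held genes called higher, among them Hoxb1 (1.18, SE 0.24) and Hoxd9 (0.71, SE 0.16). Hoxb7 had -0.33 without a call (adjusted p = 0.222), but 0.48 with a call when extended by 20 kb (adjusted p = 0.00137). The median level of the list was -0.29 at day 0, -0.07 at day 1 and 0.46 at day 2, against 1.71 in DNMT_WT.

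Genes of later lineages were called higher in part. In the list of blood and blood-forming endothelium 8 of 34 genes rose and 1 fell (median 0.22; 15.3% of all genes were called higher). Without day 0 replicate 2 the blood counts were 10 and 2 with a median of 0.13, and by voom 15 and 4. In mesoderm 10 of 20 rose (median 0.43), in endoderm 9 of 20 (0.31) and in the neural list 9 of 20 (0.47), with 0 lower in each. In trophoblast 9 of 20 rose and 1, Lama1, fell (0.30), and without day 0 replicate 2 10 and 3 (0.47). Snai1, a repressor that acts in the primitive streak (1.53, SE 0.22), Eomes, a T-box factor of mesendoderm and trophoblast (1.33, SE 0.25), and Meox1, a homeobox factor of somites (0.96, SE 0.12), rose in the mesoderm list. En2, a midbrain homeobox gene, read -0.55, 0.16 and -0.31 at day 0 and 0.60, 1.02 and 0.83 at day 2 (1.05, SE 0.17). Tfap2a, a factor of trophoblast and surface ectoderm, rose by 1.08 (SE 0.17). In Runx1, a master factor of blood formation whose gene value fell by 0.32 (SE 0.09, adjusted p = 0.0242), 7 tiles were called higher and 14 lower of 116. The share called higher was below the 7.72% of the tiles of all genes, and the share called lower above their 3.26%. The strongest Runx1 tile was a gain 181 kb from the start (147, 107 and 133 reads against 287, 182 and 306), so the gene's lower mean does not describe every part of it, and its call was lost under 8 of 24 alternatives.

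Genes of cell adhesion and epithelial cells were read as a further list. Of 24 genes of adhesion and epithelium 6 were called higher (25%, against 15.3% of all genes) and 0 lower (median 0.27). The counts were 8 and 3 with a median of 0.09 without day 0 replicate 2 (22% and 9.56% of all genes). By voom they were 10 and 3 (24.5% and 8.8% of all genes). Cdh1, which encodes E-cadherin (chromosome 8, 106603350 to 106670247), read 0.02, 0.03 and -0.09 at day 0 and 1.18, 1.27 and 1.26 at day 2 (1.25, SE 0.09, adjusted p = 4.06e-06). In Cdh1 19 of 36 tiles were called higher and 1 lower, and the strongest went from 11, 4 and 6 reads to 90, 78 and 98 (4.55, SE 0.35). By voom the Cdh1 difference was 0.33 (adjusted p = 0.000826). The claudin gene Cldn4, for a tight junction protein, rose from -1.42, -1.66 and -1.54 to 0.76, 0.76 and 0.49 (2.21, SE 0.19; 1.07 by voom), Cldn3 by 1.23 (SE 0.22) and Jup, which encodes plakoglobin, by 1.13 (SE 0.14). Among mesenchymal genes Vim had 0.51 (adjusted p = 0.246) and Zeb1 -0.22 (adjusted p = 0.654), both without a call. Cdh2, which encodes N-cadherin, had -0.30 without a call (adjusted p = 0.497). It was called lower without day 0 replicate 2 (-0.61, adjusted p = 0.00574) and by voom (-0.38, adjusted p = 0.00932).

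Of 22 glycolysis genes 9 were called higher (40.9%, against 15.3% of all genes) and 0 lower (median 0.35). Without day 0 replicate 2 the counts were 14 and 1. The glucose transporter genes Slc2a1 (-0.10, 0.16 and 0.16 against 0.89, 0.86 and 1.04) and Slc2a3 (-0.09, -0.10 and 0.13 against 0.90, 0.82 and 0.84) did not overlap between the groups and rose by 0.86 (SE 0.11) and 0.87 (SE 0.11). Eno1, which encodes enolase, rose by 1.48 (SE 0.22). Housekeeping genes had 4 of 20 called higher (20%, near the 15.3% of all genes) and 0 lower. Their median of 0.37 was close to those of the signalling lists. Actb, which encodes cytoplasmic actin, stood at -2.55, -0.66 and -2.26 at day 0, where replicate 2 was the high one, and at -0.20, 0.27 and 0.00 at day 2 (1.85, SE 0.37).

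**Figure D5:**
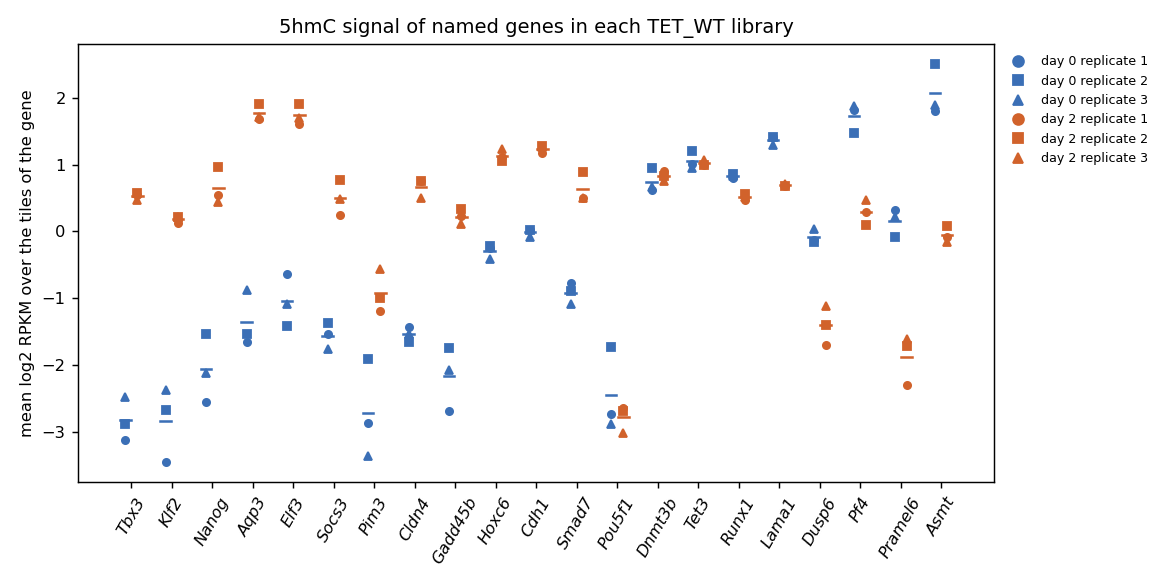
Mean log2 RPKM of 21 genes (x axis) in each TET_WT library (y axis), with a bar at the mean of each group of 3 (blue, day 0; orange, day 2; the symbol marks the replicate). The groups are separate at Socs3, Gadd45b, Cldn4, Hoxc6, Cdh1 and Smad7 on the side of gain and at Lama1, Dusp6, Pf4, Pramel6 and Asmt on the side of loss, and they overlap at Pou5f1, Dnmt3b and Tet3.

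Germline and imprinted genes had the lowest medians of the 22 lists. The list of trithorax complexes and enhancer cofactors came next, with 1 of 22 called higher and a median of 0.04 (-0.03 without day 0 replicate 2). Of 20 germline and meiosis genes none was called by limma, and 0 higher and 1 lower had an unadjusted p under 0.05. Voom called 1 higher and 4 lower, and the list's median was -0.09. Their median level was low throughout, -1.47 at day 0 and -1.29 at day 2. Of 24 imprinted genes 2 were called higher and 2 lower (8.33% each, against 15.3% and 2.51% of all genes), with a median of -0.05. Without day 0 replicate 2 the counts were 4 and 6 (median -0.13), against 22% and 9.56% of all genes. Rtl1, a retrotransposon-derived gene of the Dlk1 locus, fell from 1.06, 1.33 and 1.21 to 0.50, 0.75 and 0.59 (-0.59, SE 0.11, adjusted p = 0.00206), and Igf2r, a receptor that clears the growth factor IGF2, from 0.86 ± 0.23 to 0.38 ± 0.01 (-0.49, SE 0.13). Both lost their calls with median centring (adjusted p = 0.232 and 0.367). Rtl1 stood at 1.58 in DNMT_WT, above both groups of TET_WT.

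Markers of fibroblast and feeder cells, which a culture could hold, were read as well. Of 16 genes Thy1, a surface glycoprotein gene, was called higher (0.54, SE 0.14, adjusted p = 0.0149) and 0 lower, with a median of 0.08. Without day 0 replicate 2 the counts were 4 and 1 and the median 0.05. The median level of this list was -0.25 at day 0 and -0.29 at day 2. These are levels of 5hmC at the genes and not of their RNA.

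The largest gains outside the lists included Mllt6, a partner gene of leukaemia fusions (-3.38, -1.80 and -2.45 against -0.13, 0.03 and -0.17; 2.45, SE 0.29). Ccdc160 on the X chromosome read -3.24, -3.74 and -3.63 at day 0 and -1.04, -0.92 and -1.35 at day 2 (2.44, SE 0.27). These genes were named for the size of their differences with the groups apart, so their separation is a description. Among the losses Pramel31 read -1.04, -1.41 and -0.67 against -2.34, -2.63 and -2.30 (-1.39, SE 0.29), and H2ab2, a histone variant gene, -1.32, -2.72 and -1.79 against -3.21, -2.98 and -3.66 (-1.34, SE 0.43, adjusted p = 0.046). H2ab2 rested on 62 to 88 reads at day 0 and 8 to 12 at day 2 and lost its call under 14 of 22 alternatives. Asmt, which encodes the last enzyme of melatonin synthesis on the X chromosome, lost signal in all 4 of its tested tiles. The strongest went from 492, 422 and 472 reads to 61, 40 and 72 (-2.28, SE 0.18), and other tiles of the span did not pass the tile filter. Without the tile filter the Asmt difference was -1.16 (adjusted p = 0.00707) in place of -2.12.

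Some genes held gains and losses side by side. At 1161 of 20717 genes 3 or more tiles were called higher and 3 or more lower, and 993 of them had no call as a whole. Over the tiles of all genes 7.72% were called higher and 3.26% lower. Longer genes hold more tiles, and the part of gene length in these counts was not tested. A further measure is that 2519 genes without a call held 5 or more called tiles, while 6905 genes held none. Examples, chosen after their values were seen, are long genes. In Wwox, a tumour suppressor gene at a fragile site, 36 tiles were called higher and 60 lower of 457 (gene difference -0.14, adjusted p = 0.267). In Dst, which encodes a cytoskeletal linker, 48 were called higher and 25 lower of 200, and the gene was called higher (0.34, SE 0.08, adjusted p = 0.0128). In Tenm4, a teneurin of cell adhesion, 23 were called higher and 75 lower of 369, and it was called lower (-0.43, SE 0.11, adjusted p = 0.0131). The share of tiles called higher was near that of all genes in Wwox and below it in Tenm4.

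The share of calls depended on where a tile lay and how much signal it held. Of tiles in protein-coding genes 7.50% were called higher and 3.32% lower, falling to 3.31% and 2.26% at 10 to 50 kb from a gene and to 0.418% and 0.457% at 200 kb or more. Mean signal fell in the same order, from -0.87 to -3.34 log2 RPKM at day 0. In the lowest decile of tiles by signal 0.0515% were called higher and 0% lower, and in the highest 21% and 11.2%. Absence of a call in a tile of few reads therefore does not show that its 5hmC did not change. On chromosome 6, 4.07% of tiles were called lower and 3.85% higher, an order that turned without day 0 replicate 2 (3.46% and 3.64%). Its mean fell by 0.15 relative to all tiles (0.18 without day 0 replicate 2), with groups that did not overlap but an adjusted p of 0.5 over 20 chromosomes (exact permutation test, two-sided, unadjusted p = 0.1). Groups were also apart on that relative scale at chromosomes 2, 4 and 15, with the same p-values but smaller differences in the other direction (0.05, 0.04 and 0.01).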

How the data were processed

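5hmC libraries were made from DNA by the HMCP capture method, per the labels' protocols. Trimming and alignment tools in the submitters' processing notes were Bowtie2 2.4.1, Trim Galore 0.6.5 and cutadapt 2.3, with build GRCm38, and the counting tool is not given in the sources used here. The deposited values are log2 RPKM per 2 kb tile, computed by the authors. In each library they were whole read numbers within 0.1%, with tiles without reads at 0.9 reads, and the reads recovered were 2.32 times the RPKM denominator, which shifts a library's values alike.

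Tiles outside chromosomes 1 to 19 and X, the lowest 10% and the highest 0.1% by mean were left out. A gene's value is the mean over at least 3 tested tiles within its span and 2 kb. All 11 libraries, as 4 groups, were fitted with limma 3.58.1 (R 4.3.3, lmFit and eBayes with trend), with Benjamini-Hochberg adjustment. The script was tested on simulated data. Class means used exact permutation tests. Alternatives included voom on recovered reads, other scalings, filters and spans, equal depth and leaving out each library.

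Named genes were the 10 largest gains and 10 largest losses called with the groups apart (without predicted genes and receptor families of smell), 2 members of each list by p, the member most opposed to its list's median, and 14 genes of general interest. List members beyond these illustrate their list and were chosen after their values were seen. The comparison and the 22 lists (505 entries) were chosen with earlier results of these data known. The Asmt promoter is mostly unknown bases and is not printed. Some named genes are not reported here. Paired replicate numbers were checked as described with the alternatives.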

Additional observations from a re-analysis of the deposited data

Results flagged for a closer look

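Reads outside the chromosomes compared were present in every library. On the Y chromosome the 3 day 0 libraries held 13878, 7161 and 13857 reads and the day 2 libraries 7022, 5136 and 6621, the lowest being 5136. On the mitochondrial genome the day 0 libraries held 1771, 227 and 2569 reads and the day 2 libraries 49, 82 and 110, the lowest being 49. These reads enter no comparison above, and the difference between the groups was not tested.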

How the results depend on the processing

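Of 92 named genes 66 were called, 45 of them under every one of up to 24 alternatives, and 18 without a call passed under some. The gene count of 3689 was 1263 with median centring (1207 higher, 56 lower), 6153 with the log2 of the mean RPKM (75.1% higher), 6898 with voom (73.6% higher) and 2264 to 6543 with 1 library left out. The extremes were without day 2 replicate 2 and without day 0 replicate 2 (69.7% higher against 85.9%), and it was 2414 without day 2 replicate 3. The tile count of 94794 was 11240 without a variance trend (84.4% higher against 66.5%), 63637 with median centring (80.7% higher) and 64430 to 106942 with 1 library left out. Spans of 20 kb moved 62 of the 92 gene values by over 1.5 times, voom 25 and leaving out day 0 replicate 2 16. Where either fit made a call, directions turned with 20 kb spans at Pcgf1 (0.69), Hoxb7 (0.48), Pou5f1 (0.71) and Trh (-0.18), in the more covered tiles (median signal and up) at Sox21 (0.35), and with voom and the log2 of the mean RPKM at Utf1 (0.13 in both). Other signs turned with no call in either fit, among them Msgn1 (0.17 by voom) and Pou5f1 (0.03 without day 0 replicate 2). Relative to all tiles, those in other annotated genes (-0.01) ran from -0.021 to 0.0192 and those under 10 kb from genes (-0.005) from -0.0216 to 0.0252 with 1 library left out, the highest without day 0 replicate 2, and those at 200 kb or more (-0.10) stood at 0.25 without the tile filter. The difference behind gene starts was 0.31 with 1 read added (exact permutation p = 0.3, the groups overlapping) and 0.36 at equal depth (p = 0.1), alternatives chosen after seeing the data. Called members ran from 15 to 21 in the naive list and 15 to 35 in the HOX list.

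The correlations of deviations between day 0 and day 2 libraries were 0.03, 0.03 and -0.05 for equal replicate numbers and -0.05 to 0.04 for unequal ones. With 3 libraries per group and day 0 replicate 2 apart, these values cannot show whether libraries of equal number shared a culture or batch. With the replicate block 3495 genes (3051 higher and 444 lower) and 94176 tiles were called. Voom on tiles was not run.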
